A study of Mus musculus with 6 samples.

Results

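The sinusoidal uptake carriers of hepatocytes, Slc10a1, Slco1a1, Slco1a4, Slco1b2, Slco2b1 and Slc22a7, were examined in mouse primary hepatocytes exposed to an agonist of the bile acid receptor FXR. They were chosen by gene symbol, and all 6 of 6 were measured among 22180 genes. For each gene the probe set with 1 symbol and the highest mean over the 6 arrays was used. Slco2b1 had 2 such probe sets and the others had 1. The cells were treated for 4 h in serum-free William's medium with 2 µM GW4064, a synthetic FXR agonist, or with the solvent DMSO, here 0 µM GW4064. Both groups held hepatocytes of wild-type adult male C57Bl/6 mice, with 3 arrays each, and the series design gives 3 independent preparations. The labels do not give the number of animals behind a preparation, nor do they say that a replicate number marks one, so the p-values below measure the spread between these arrays. Values are log2 intensities on a 1-colour Affymetrix MoGene-2_0-st array, where a difference of 1 is a 2-fold change.

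Bile acids return from the gut in portal blood and enter the hepatocyte across its sinusoidal membrane, before the canalicular pumps move them into bile. Slc10a1 encodes NTCP, which takes up conjugated bile acids together with sodium. The Slco genes encode OATP carriers, which take up bile acids, bilirubin, steroid conjugates and many drugs without sodium, and Slc22a7 encodes the organic anion transporter OAT2. In rat liver, SHP (Nr0b2), which FXR induces, is known to repress the Slc10a1 promoter. In mouse liver Slco1a4 is known as a target of the xenobiotic receptor PXR (Nr1i2), and Slco1a1 is known to be higher in males.

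In the RefSeq gene table Slco1b2, Slco1a4 and Slco1a1 lie near each other on chromosome 6, in a run of Slco1 genes that begins with Slco1c1 and ends with Slco1a6 and Slco1a5. Slc10a1 lies on chromosome 12, Slco2b1 on chromosome 7 and Slc22a7 on chromosome 17. RefSeq promoter windows (build GRCm38.p6) were at hand for 5 of the 6 genes, 2 of them for Slc10a1 and 3 for Slco2b1. The 250 bases before each start were searched on both strands for AGGTCA, the single-repeat motif of many nuclear receptors, which 14% of 32851 such windows hold. The other motifs were GTTAAT of HNF1 (6.43% of windows), TTGCNNAA of C/EBP factors (9.56%) and TATAAA of the TATA box (12.4%). Also searched were GTCANTGAC, the core of the inverted repeat bound by FXR with RXR (0.32%), and CAAAGTCCA of HNF4 (0.384%), neither of which occurs in these letters in the carriers' windows. None of the motifs occurs in the windows of Slco1a4 and Slco2b1. The windows with a match are shown because they place these motifs next to the starts of the carriers whose values follow, with matches in capitals and each read 5′ to 3′ on the strand of its gene.
Slc10a1 first window, chr12:80968706-80968955, minus strand: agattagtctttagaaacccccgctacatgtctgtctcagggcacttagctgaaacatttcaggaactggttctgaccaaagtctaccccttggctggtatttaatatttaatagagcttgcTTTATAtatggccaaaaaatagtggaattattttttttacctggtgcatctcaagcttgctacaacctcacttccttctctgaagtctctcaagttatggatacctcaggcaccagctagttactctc
Slc10a1 second window, chr12:80968080-80968329, minus strand: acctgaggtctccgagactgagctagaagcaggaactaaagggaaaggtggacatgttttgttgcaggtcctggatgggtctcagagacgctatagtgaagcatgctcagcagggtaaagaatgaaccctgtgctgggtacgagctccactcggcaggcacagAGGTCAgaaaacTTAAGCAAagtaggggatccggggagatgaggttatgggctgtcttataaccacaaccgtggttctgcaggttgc
Slco1b2, chr6:141629268-141629517, plus strand: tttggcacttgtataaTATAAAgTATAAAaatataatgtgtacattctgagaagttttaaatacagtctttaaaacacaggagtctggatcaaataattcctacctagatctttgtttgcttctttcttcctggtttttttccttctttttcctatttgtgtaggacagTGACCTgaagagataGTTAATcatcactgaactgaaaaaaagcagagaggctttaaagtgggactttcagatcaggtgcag
Slco1a1, chr6:141946963-141947212, minus strand: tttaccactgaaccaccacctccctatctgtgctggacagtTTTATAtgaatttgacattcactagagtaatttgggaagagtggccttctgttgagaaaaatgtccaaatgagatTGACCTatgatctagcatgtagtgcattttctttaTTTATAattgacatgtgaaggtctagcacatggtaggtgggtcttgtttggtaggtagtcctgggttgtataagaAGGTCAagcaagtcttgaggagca

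AGGTCA occurs in the windows of 3 carriers. In Slco1b2 it begins 81 bases before the start on the opposite strand, and a GTTAAT begins 66 bases before it. In Slco1a1 there are 2 matches, at 134 bases on the opposite strand and at 24 bases on the gene's own strand. The second Slc10a1 window has 1 match at 87 bases, followed by a TTGCNNAA match at 75 bases on the opposite strand. The TATAAA matches lie at 234 and 227 bases in Slco1b2, on the gene's own strand. Those at 209 and 99 in Slco1a1 and at 128 in the first Slc10a1 window are on the opposite strand. These matches are letters in a window and not measured binding sites.

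The arrays were alike in scale, with medians between 3.74 and 3.79 over 41345 probe sets and values from 0.94 to 13.07. The labelled cell type was checked with 13 measured hepatocyte markers, whose DMSO levels ran from 5.21 to 12.85, with Alb (albumin) at the top. Of the other cell types of liver, 3 of 7 Kupffer cell and leukocyte markers, 4 of 5 sinusoidal endothelial, 2 of 5 stellate cell and 3 of 4 cholangiocyte markers lay above 3.78. That level is the 95th percentile of 1429 chemosensory receptor genes (olfactory, vomeronasal and taste), taken here as genes not expected in hepatocytes. Of all genes, 57.1% lay above it, so these counts do not show that the other cell types were present. The response to GW4064 was present, since Abcb11, the bile salt export pump gene, read 8.14, 7.80 and 7.96 with GW4064 and 5.09, 4.83 and 4.74 with DMSO.

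The carriers lay low to mid-range on the array scale in DMSO. Slc10a1 and Slco1a4 were at 5.21 ± 0.33 and 5.24 ± 0.88 and Slco2b1 at 4.38 ± 0.10 (mean ± SD, n = 3 arrays each). These 3 were above the 95th percentile of the chemosensory genes, together with 57.1% of all genes. Slco1a1 at 3.22 ± 0.53, Slco1b2 at 3.16 ± 0.36 and Slc22a7 at 3.40 ± 0.13 lay below it. Of the chemosensory genes, 10.2% were at or above the level of Slco1a1, 11.1% at or above Slco1b2 and 7.84% at or above Slc22a7, against 0.700% for Slc10a1 and 0.560% for Slco1a4. For these 3 genes a signal in DMSO was therefore not told apart from that of genes not expected in the cells, so a fall in transcript might not show. The median chemosensory gene lay at 2.03, so lower readings were possible on this scale. Probe sets differ in brightness, so the levels do not rank the carriers by transcript number.

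**Figure D1:**
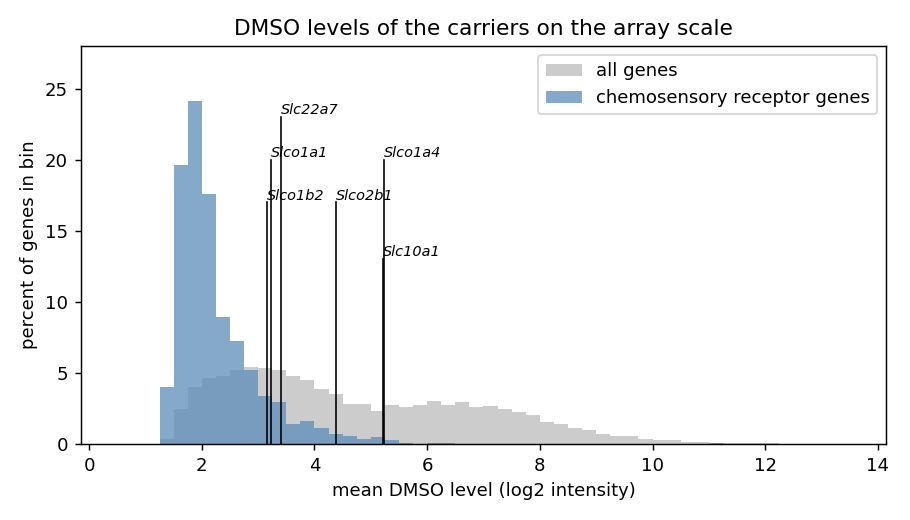
Percent of genes per bin of mean DMSO level (log2 intensity, n = 3 arrays), for all 22180 genes in grey and 1429 chemosensory receptor genes in blue, with a line at each carrier. Slco1b2, Slco1a1 and Slc22a7 lie between 3.16 and 3.40, within the upper part of the chemosensory genes, and Slc10a1 and Slco1a4 at 5.21 and 5.24.

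None of the 6 uptake carriers rose or fell with GW4064 at a limma adjusted p under 0.05, where 11 of 22180 genes (0.0496%) were called, all higher. With the replicate number as a block none was called either, against 18 genes (0.0812%). At an unadjusted limma p under 0.05 the count was again 0 of 6, against 5.66% of all genes. The GW4064 and DMSO arrays overlapped for all 6, and 10.8% of all genes had groups that did not overlap. With shares this small, none of these counts sets the 6 carriers apart from all genes. Of the 6, 3 had positive and 3 negative log2 changes, with a median of -0.01, close to the -0.02 of all genes. With 3 arrays a group, the smallest two-sided p of an exact permutation test is 0.1, so limma was used throughout.

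Slc10a1 is the sodium-dependent bile acid carrier and the best known of these genes. It read 5.60, 4.84 and 5.28 in GW4064 replicates 1, 2 and 3, against 5.45, 4.83 and 5.35 in DMSO replicates 1, 2 and 3. Replicate 2 was the lowest array of both groups and replicate 1 the highest of both, and the groups overlapped almost fully. The log2 change was 0.03 (SE 0.21, limma adjusted p = 0.999), a GW4064 to DMSO ratio of 1.02 with a 95% interval of 0.73 to 1.42. Same-numbered pairs 1, 2 and 3 differed by 0.15, 0.00481 and -0.07. With the replicate block the interval narrowed to 0.88 to 1.17 (adjusted p = 0.948). At this precision a 2-fold fall in the Slc10a1 signal lies outside both intervals. Leaving out GW4064 replicate 1 or DMSO replicate 2 turned the estimate to -0.16 in each case, and leaving out pair 1 turned it to -0.03.

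Slco1a1, which encodes OATP1A1, gave the highest log2 change of the 6, and 1 pair of arrays carried it. It read 3.67, 3.99 and 3.01 with GW4064 and 3.84, 2.89 and 2.94 with DMSO, in replicates 1, 2 and 3. Pair 2 differed by 1.10, whereas pairs 1 and 3 differed by -0.17 and 0.07. The change of 0.34 (SE 0.29, limma adjusted p = 0.998) is a ratio of 1.26 with a 95% interval of 0.80 to 2.00. Without pair 2 it was -0.05.

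For Slco1a4, the OATP1A4 gene, the readings were 4.45, 5.73 and 5.03 in GW4064 replicates 1 to 3 and 4.22, 5.68 and 5.82 in DMSO replicates 1 to 3. Replicate 1 was the lowest array in both groups, more than 1 log2 unit under replicate 2. The change was -0.17 (SE 0.43, limma adjusted p = 0.998), with a 95% interval of the ratio from 0.45 to 1.74, and from 0.65 to 1.22 with the replicate block (adjusted p = 0.836). Pairs 1 and 2 differed by 0.23 and 0.05 and pair 3 by -0.79. Without pair 3 the change was 0.14, without DMSO replicate 3 it was 0.12, without GW4064 replicate 1 it was 0.14 and without DMSO replicate 2 it was 0.05. Nr1i2, the gene of PXR, rose in the same cells and is described with the transcription factors.

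Slco1b2 encodes the liver carrier OATP1B2, the mouse counterpart of the human OATP1B proteins. Its values were 3.35, 3.71 and 3.15 with GW4064 and 2.81, 3.15 and 3.53 with DMSO, in replicates 1, 2 and 3. Pairs 1 and 2 differed by 0.54 and 0.55 and pair 3 by -0.37, so the groups overlapped. Its change of 0.24 (SE 0.19, limma adjusted p = 0.989) corresponds to a ratio of 1.18, with a 95% interval of 0.87 to 1.60. It stayed above 0 with each array or pair left out, between 0.06 and 0.55.

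Slco2b1, the OATP2B1 gene, and Slc22a7, the OAT2 gene, varied least between arrays. Slco2b1 read 4.22, 4.37 and 4.35 with GW4064, against 4.28, 4.48 and 4.37 with DMSO. All 3 pairs were lower with GW4064, by small amounts (-0.06, -0.12 and -0.02), a sign pattern of one kind or the other that 31.2% of all genes had. Its ratio was 0.95 with a 95% interval of 0.82 to 1.11 (limma adjusted p = 0.998). Slc22a7 read 3.48, 3.33 and 3.26 with GW4064 and 3.46, 3.25 and 3.49 with DMSO, a ratio of 0.97 with an interval of 0.82 to 1.15 (limma adjusted p = 0.998). The groups of both genes overlapped. Leaving out GW4064 replicate 3 brought its change to 0.00116, and leaving out pair 3 to 0.05.

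The second Slco2b1 probe set (17480590) behaved differently from the first (17493689). It read 2.43, 2.56 and 2.49 with GW4064 and 2.80, 2.84 and 2.64 with DMSO, so the groups did not overlap. The change was -0.27 (SE 0.10), and it did not pass in limma over the 23521 probe sets with 1 symbol (adjusted p = 0.823, and 0.460 with the block). Groups that did not overlap were found in 10.8% of all genes. Both groups lie under the 3.78 of the chemosensory genes' 95th percentile.

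**Figure D2:**
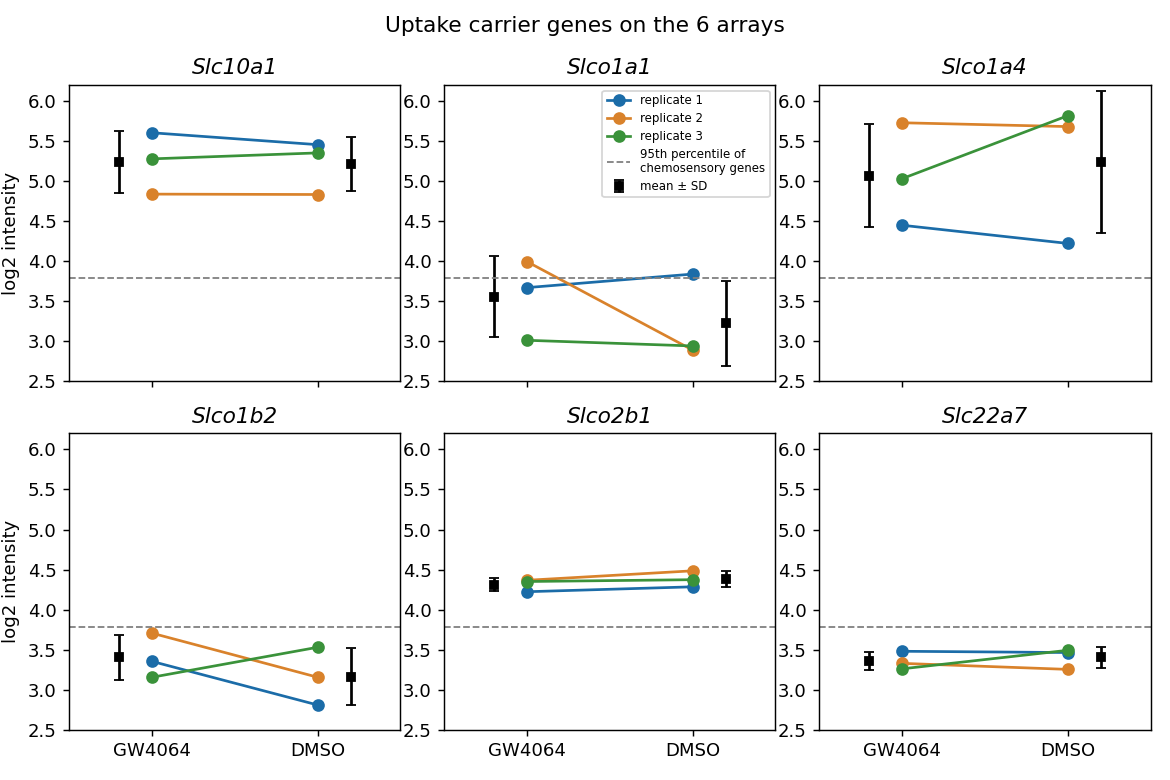
Log2 intensity of each carrier on the 6 arrays, GW4064 at the left and DMSO at the right of each panel, with lines joining same-numbered arrays, squares and bars for mean ± SD (n = 3), and a dashed line at 3.78, the 95th percentile of the chemosensory genes. Same-numbered arrays of Slc10a1 keep their order in both groups, and single pairs set apart Slco1a1 (pair 2) and Slco1a4 (pair 3).

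**Figure D3:**
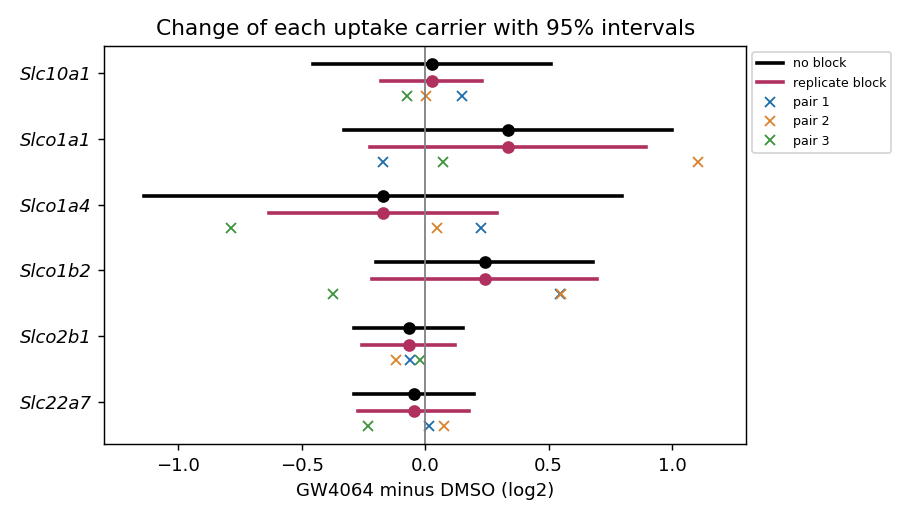
Log2 change of each carrier, GW4064 minus DMSO, as points with 95% limma intervals without a block in black and with the replicate block in red, and crosses for the 3 same-numbered pairs. Every interval includes 0, and that of Slc10a1 runs from -0.46 to 0.51 without the block and from -0.18 to 0.23 with it.

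Slc10a1, Slco1a1, Slco1a4 and Slco1b2 varied widely between arrays of the same group. The SD between arrays of a group, pooled over both groups, was 0.36 for Slc10a1, 0.52 for Slco1a1, 0.77 for Slco1a4 and 0.32 for Slco1b2, against a median of 0.14 over all genes. These 4 of the 6 lay above the 95th percentile of that spread over all genes, whereas Slco2b1 at 0.09 and Slc22a7 at 0.12 lay below its median. Such spread was not particular to the carriers. The hepatocyte markers Cyp2e1 (0.69), Tat (0.50), Hpd (0.48), Asgr1 (0.44), Ass1 (0.42) and Cps1 (0.32) also lay above that percentile. The remaining hepatocyte markers lay below it. Slc10a2 (0.50) and the sinusoidal carriers Slc27a5 (0.50), Slc7a2 (0.47) and Slc2a2 (0.35) lay above it, unlike the rest of their lists. The replicate number was then tested beside the treatment in limma, a test added after the values were seen. It called 1.07% of all genes and none of the 6 carriers, with adjusted p = 0.0764 for Slc10a1 and 0.105 for Slco1a4. The means of the 2 arrays of a number were 5.53, 4.83 and 5.31 for Slc10a1 and 4.33, 5.70 and 5.42 for Slco1a4, in replicates 1, 2 and 3. The 2 genes thus had opposite extremes, with replicate 1 the highest for Slc10a1 and the lowest for Slco1a4.

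**Figure D4:**
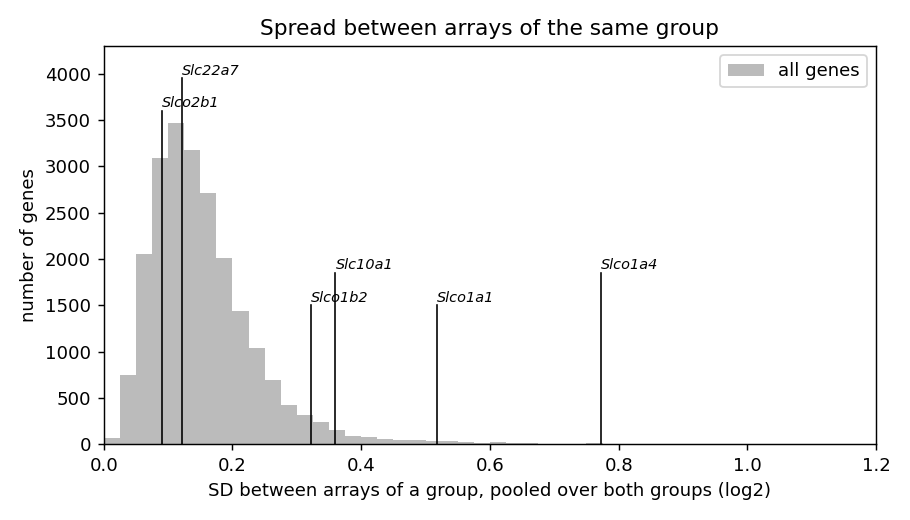
Number of genes by the SD between arrays of the same group, pooled over GW4064 and DMSO (log2, n = 3 arrays each), with a line at each carrier. Slco1a4 at 0.77, Slco1a1 at 0.52, Slc10a1 at 0.36 and Slco1b2 at 0.32 lie in the upper tail, and Slco2b1 and Slc22a7 lie among the bulk of genes.

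Some hepatocyte markers, and a marker of other liver cells, differed between replicate numbers as well. The limma test of replicate number called Cyp2e1 (adjusted p = 0.0165), Hpd (0.0273), Tat (0.0288) and Cd68 (0.0141), beside 1.07% of all genes. The other markers listed were not called. Cyp2e1 read 8.27, 6.91 and 7.14 with GW4064 and 8.14, 6.87 and 7.27 with DMSO, in the same order of replicates as Slc10a1. Cd68, a lysosomal protein gene of macrophages, read 9.86, 8.46 and 9.93 with GW4064 and 9.63, 8.53 and 10.02 with DMSO. It was lowest in replicate 2 like Slc10a1, but highest in replicate 3. The mean level of the 7 Kupffer cell and leukocyte markers ran from 3.83 to 4.07 with GW4064 and from 4.01 to 4.18 with DMSO. Of these 7 markers, Cd68 alone was lowest in replicate 2 of both groups, whereas Vsig4 and Adgre1, between 2.45 and 3.19, were highest there. Clec4f, a Kupffer cell lectin gene, lay between 3.60 and 4.06. The mean level of the 13 hepatocyte markers ran from 9.17 to 9.33 with GW4064 and from 9.26 to 9.41 with DMSO, and was lowest in replicate 2 of both. Of its members, 2 of 13 (Cyp2e1 and Hpd) were lowest in replicate 2 of both groups, and 3 (Ttr, Fgb and Serpina1a) were highest there. Their part in the spread of Slc10a1 was not tested. In these bulk samples fewer cells of a type and less RNA per cell cannot be told apart.

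Close relatives of the carriers did not pass the test over all genes either. Of 11 further Slco genes, 6 were higher and 5 lower, and the median log2 change was 0.01. None was called, beside 0.0496% of all genes, so the lack of a call in a list this short says little. Slco2a1, the prostaglandin transporter gene, was bright, at 11.07, 10.81 and 10.78 with GW4064 and 11.28, 10.89 and 10.98 with DMSO, with a change of -0.17 (SE 0.13). Slco4a1, another OATP gene, had a change of -0.29 (SE 0.11, limma adjusted p = 0.858), at 3.10 and 3.39 in the GW4064 and DMSO means. It was lower in all 3 pairs, and 31.2% of all genes had 1 sign in all 3. Slco4c1 and Slco5a1 had changes of 0.11 and 0.10, at DMSO means of 1.87 and 3.26. Only 2 of the 11 further Slco genes had DMSO means above 3.78, the 95th percentile of the chemosensory genes. Slco1a5 and Slco1a6, which follow Slco1a1 in the run on chromosome 6, had DMSO means of 2.21 and 2.54.

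In the Slc10 family, 3 of the 5 other measured genes, Slc10a2, Slc10a5 and Slc10a6, had lower means with GW4064. None of the 5 was called, beside 0.0496% of all genes. Slc10a2 encodes the sodium-dependent bile acid carrier of ileum, kidney and bile ducts, known as ASBT. It read 6.97, 7.66 and 6.60 with GW4064, against 7.49, 8.13 and 7.21 with DMSO, in replicates 1, 2 and 3. The groups overlapped, but every same-numbered pair was lower with GW4064, by differences of -0.52, -0.47 and -0.61. Of all genes, 31.2% had the same sign in all 3 pairs. Its change of -0.53 had an SE of 0.29 and a limma adjusted p of 0.939, or an SE of 0.08 and an adjusted p of 0.153 with the replicate block. Slc10a6, the carrier gene of sulphated steroids, read 3.89, 4.03 and 3.94 with GW4064 and 4.19, 4.50 and 4.25 with DMSO (change -0.36, adjusted p = 0.745). Slc10a5, an orphan member, averaged 3.29 with GW4064 and 3.67 with DMSO, both under 3.78, with a change of -0.38 (SE 0.13, adjusted p = 0.789), and Slc10a4 one of 0.07. Both Slc10a6 and Slc10a5 had groups that did not overlap, as 10.8% of all genes did. None of the 3 lower genes passed under any of the alternatives run.

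Of 22 further measured Slc22 genes, 7 were higher and 15 lower, and the median was -0.04. None was called, beside 0.0496% of all genes, and 10 of the 22 had DMSO means above 3.78. Slc22a15, an organic ion carrier family gene, had the smallest p, with 4.80, 5.07 and 4.79 with GW4064 and 5.15, 5.31 and 5.07 with DMSO (change -0.29, limma adjusted p = 0.858). The other sinusoidal carriers of sugars, amino acids, fatty acids and nucleosides were lower in 12 of 13, none called, with a median of -0.08. The fatty acid carrier gene Slc27a2 had -0.22 (SE 0.12) and the nucleoside carrier gene Slc29a1 -0.21 (SE 0.11). Over all genes 12286 of 22180 were lower.

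Among 16 measured exporters of bile acids, lipids and drugs, 2 were called higher and none lower. Over all genes 11 of 22180 (0.0496%) were called, every one higher. By sign alone 11 exporters were higher and 5 lower. Abcb11 had a log2 change of 3.08 (SE 0.13, limma adjusted p = 3.7e-05). Abcb4, the phosphatidylcholine exporter gene, had 1.29 (SE 0.15, adjusted p = 0.0343). It was not past the threshold when any 1 array but DMSO replicate 3 was left out (adjusted p up to 0.230). With any pair left out Abcb4 did not pass either, and over all alternatives its limma adjusted p reached 0.731. Abcb1a, a drug efflux pump gene, had 1.01 (SE 0.16, adjusted p = 0.123) and passed with the block (0.0374). Abcg5, of the sterol exporter, had 0.47 (SE 0.13). The median of the exporter list was 0.19, beside -0.01 for the 6 uptake carriers. The difference between uptake and export genes was not tested.

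Transcription factors known to act on carrier genes included 2 of 21 called higher and none called lower, beside the same 0.0496% of all genes. By sign alone 8 were higher and 13 lower. Nr0b2, the SHP gene, read 6.68, 7.11 and 6.87 with GW4064 and 4.58, 4.49 and 4.46 with DMSO, far apart in every pair, with a change of 2.37 (SE 0.12, limma adjusted p = 1.17e-04). Nr1i2, the PXR gene, had 1.72 (SE 0.20, adjusted p = 0.0352). Its call was lost without DMSO replicate 1 or 3 or any GW4064 replicate (adjusted p up to 0.222). It was also lost with any pair left out, and over all alternatives the limma adjusted p of Nr1i2 reached 0.588. Nr1h4, which encodes FXR itself, had -0.72 (SE 0.09, adjusted p = 0.0535), and Hnf4a, a factor of hepatocyte identity, had 0.55 (SE 0.12, adjusted p = 0.393). Of 5 measured membrane scaffold and sodium pump genes, none was called, with Rdx (radixin) at -0.18 (SE 0.09) and Slc9a3r2 at -0.17 (SE 0.09).

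**Figure D5:**
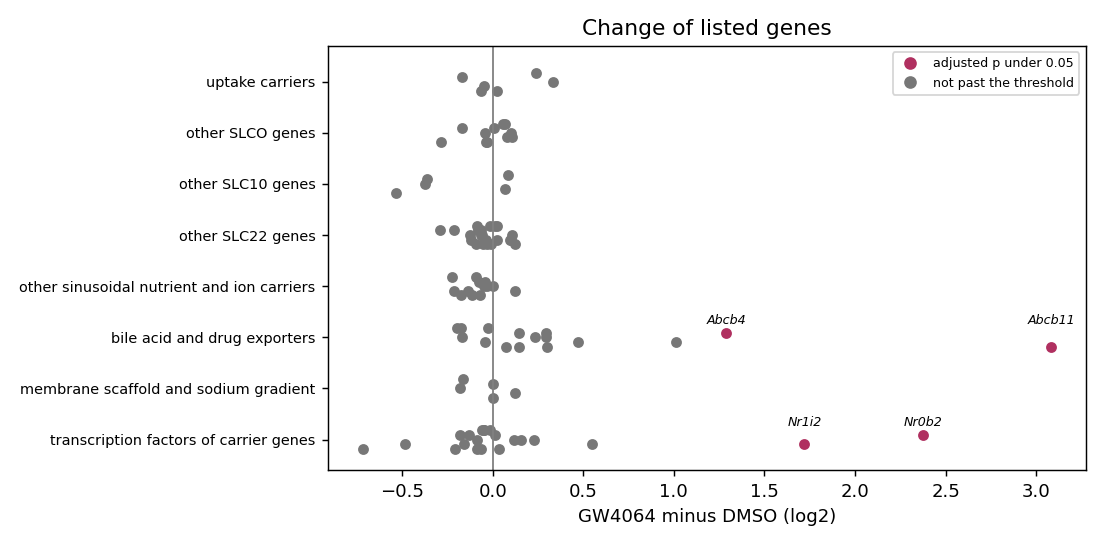
Log2 change, GW4064 minus DMSO, of each measured gene in 8 lists, 1 point per gene, in red where the limma adjusted p was under 0.05. The 6 uptake carriers lie between -0.17 and 0.34, and the 4 called genes are Abcb11 and Abcb4 among the exporters and Nr0b2 and Nr1i2 among the transcription factors.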

How the data were processed

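Total RNA of 6 hepatocyte samples was measured on 1-colour arrays. Each deposited value is a normalized intensity of a probe set, taken as log2 from its range. RMA and Partek are named, without a version, per the submitters' processing notes. The platform annotation gives 23521 of 41345 probe sets 1 symbol. For a gene with several, the brightest on average was kept, leaving 22180 genes.

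GW4064 and DMSO were compared with lmFit and eBayes of limma 3.58.1, run in R 4.3.3, without a block or a filter on dim genes, with Benjamini-Hochberg adjustment over all genes, a threshold of 0.05 and 95% intervals from the moderated SE. The deviations of same-numbered arrays from their group means correlated at 0.26, 0.34 and 0.45 across genes (more than 0.1 in every pair), so blocked values are also given. The numbers come from the sample titles. The fits were also run on simulated data with independent noise and no replicate effect. Same-numbered arrays here are correlated, so that run does not check the unblocked fit under the structure of these data. The number of arrays limits the precision.

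The carriers, 13 lists of 142 symbols (133 measured) and tests were chosen with earlier results of these data known. Genes named besides the carriers were up to 4 of each list with the smallest p, the 2 genes most like each carrier by Pearson's r, and Abcb11, Nr0b2 and Nr1h4 as a check. Alb, Ttr, Fgb, Hpd, Cyp2e1, Tat, Asgr1, Cd68, Vsig4, Adgre1, Slco1a5, Slco1a6, Slc27a5, Slc7a2 and Slc2a2 fall outside that rule and were named after their values were seen. A comparison of protein sequences between carriers was planned and not run. Promoter sequences and gene order come from RefSeq (GRCm38.p6). No build of the array annotation is given in the sources used here.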

Additional observations from a re-analysis of the deposited data

How the results depend on the processing

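None of the 6 carriers passed the threshold in limma under any alternative run, which were the replicate block, quantile normalization, median centring, filters on dim genes, another prior, the treatment of several probe sets, and leaving out each array or pair. With the kept probe sets the adjusted p of the carriers lay between 0.719 and 1.00 over these. The second Slco2b1 probe set had an adjusted p of 0.823 in limma without the block and 0.460 with it. With arrays or pairs left out the log2 change ranged from -0.16 to 0.23 for Slc10a1, from -0.05 to 0.64 for Slco1a1, from -0.68 to 0.14 for Slco1a4, from 0.06 to 0.55 for Slco1b2, from -0.12 to -0.02 for Slco2b1 and from -0.12 to 0.05 for Slc22a7, so the signs of all but Slco1b2 and Slco2b1 turned. Without pair 2 Slco1a1 was at -0.049, and without pair 3 Slc22a7 was at 0.046. Under the other alternatives no carrier changed sign. The filter at the 25th percentile of level kept all 6, and that at the median left out Slco1a1, Slco1b2 and Slc22a7. The number of genes called was 11, against 18 with the replicate block, 17 with a trended and robust prior, and 2 to 5 with arrays or pairs left out, where fewer arrays enter. Called exporters numbered 2, and 1 to 2 with arrays or pairs left out, and called transcription factors likewise 2, and 1 to 2. Among the genes named, the block changed only the call of Abcb1a. The trended and robust prior gave Nr1i2 an adjusted p of 0.0515 and Nr1h4 0.0171, and the filter at the median gave Nr1h4 0.0434. Signal limits Slco1a1, Slco1b2, Slc22a7, Slco4a1, Slco4c1, Slco5a1, Slco1a5, Slco1a6, Slc10a5 and the second Slco2b1 probe set, which lie among the chemosensory genes.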

Other observations

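The genes whose values over the 6 arrays ran most like each carrier were looked up among 10408 genes at or above the median level. They are a description, since the 6 arrays come from 3 preparations per the series design, and with so many genes high values of r arise readily. For Slc10a1 they were Myb (Pearson's r = 0.992, Spearman's rho = 1) and Ift122 (r = 0.988, rho = 0.886). For Slco1a4 they were Fbxl8 (r = 0.988, rho = 0.943) and Onecut1 (r = 0.981, rho = 0.943), the last of which is also in the list of transcription factors of carrier genes. For Slco1a1 they were Cul5 (r = 0.995, rho = 0.943) and Rap2c (r = 0.981, rho = 0.771), and for Slco1b2 Cdh22 (r = 0.993) and Slc30a9 (r = 0.992), both with rho = 0.943. For Slco2b1 they were D17H6S53E (r = 0.990, rho = 0.771) and Irf7 (r = 0.984, rho = 1), and for Slc22a7 Papss1 (r = 0.981, rho = 0.886) and Slc31a1 (r = 0.981, rho = 0.943).

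Among markers of other liver cell types none was called with GW4064 in limma, beside 0.0496% of all genes. Sox9, a cholangiocyte and progenitor transcription factor gene, had the smallest p, with 7.48, 7.74 and 8.08 with GW4064 and 7.09, 7.27 and 7.58 with DMSO, differing by 0.45 on the log2 scale (SE 0.17). Its adjusted p was 0.858, or 0.204 with the replicate block. It was higher in all 3 pairs, and 31.2% of all genes had the same sign in all 3.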
